A study of Capra hircus with 12 samples.

Results

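The layer comparison under the label IL-1β + LOXL2 was made in RNA-seq libraries of cultured goat temporomandibular joint (TMJ) cells. It sets the 3 libraries of middle cartilage layer-derived cells (MLC) labelled IL-1β + LOXL2 against the 3 libraries of superficial layer-derived cells (SLC) with the same label, which are 6 of the 12 goat libraries of the study. All 28910 rows of the count tables were members. Condylar fibrocartilage of young female goats from abattoirs was digested with collagenase, the superficial layer was separated from the middle layer, and each cell type was frozen, thawed and used after a few passages in serum-containing medium. All 12 libraries, those called IL-1β included, came from cells given interleukin-1β (IL-1β), an inflammatory cytokine, for a short time before harvest. Those labelled IL-1β + LOXL2 were, by the study's methods, first transduced overnight with an adenovirus (Ad5-LOXL2) for lysyl oxidase-like 2, an enzyme that cross-links collagen and elastin. The sources do not say whether RNA-seq cells without LOXL2 received an empty virus, how many animals gave the cells, or whether the replicates were separate cultures. The p-values below therefore measure only the spread between these libraries, and layer, culture and donor cannot be told apart.

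The mandibular condyle is covered by fibrocartilage. Its superficial layer holds flattened fibroblast-like cells in a matrix rich in type I collagen, and deeper layers hold chondrocytes that make type II collagen and aggrecan. Jaw cartilage arises from cranial neural crest cells of the first pharyngeal arch, which lack HOX gene expression and are patterned by DLX factors, whereas HOX genes, TBX4 and TBX5 mark cells of the trunk and limbs. These patterning genes are often still expressed in cultured connective tissue cells.

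The SLC IL-1β + LOXL2 libraries held 21.1 to 28.9 M counts and the MLC IL-1β + LOXL2 libraries 14.2 to 19.5 M counts. The first SLC replicate stood apart from the others of its group. The chi-square per degree of freedom between SLC replicates, which is near 1 for counting noise alone, was 169 and 62.0 for the pairs with that replicate and 31.0 for the remaining pair, against 6.10 to 36.0 between MLC replicates. LOXL2 itself was examined first. Its normalized counts, scaled with DESeq2's size factors and listed here and below for replicates 1, 2 and 3, were 15249.9, 14740.4 and 13808 in the MLC and 8541, 10124 and 10387 in the SLC libraries labelled IL-1β + LOXL2. With IL-1β alone they were 14291, 16294 and 15189 in MLC and 11583, 11647 and 11894 in SLC. The SLC libraries labelled IL-1β + LOXL2 were all below the SLC libraries with IL-1β alone, and the MLC libraries of the 2 treatments overlapped, so LOXL2 counts on the goat gene go against that label. The libraries are called by their labels below. Whether reads of the vector are counted on this gene was not tested. Between layers, LOXL2 was higher in MLC by 0.60 on the log2 scale (adjusted p = 0.0137, standard error 0.12), a call that held in 2 of the 6 fits that left out 1 library.

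The tissue labels were checked against marker genes. All 7 tested chondrocyte markers were higher in MLC, against 9.27% of all genes tested. COL2A1 and COL9A1 were at or near 0 in SLC and passed the filter on low counts only through MLC. The marker MATN3, with 17 counts over the 3 MLC and 20 over the 3 SLC libraries, was not tested. The count of 7 is therefore no support by itself. Some of the patterning genes described below go against the jaw origin in the MLC label. The MLC libraries held HOX, TBX4 and TBX5 transcripts and almost none of DLX1 and DLX6. The SLC libraries held DLX1 and DLX6 and almost no TBX4 and TBX5. This split was not complete. DLX3 and DLX4 were counted in both layers, HOXD genes had 463 counts in SLC, and HOXB genes had 58 in SLC and 21 in MLC. PITX1 and BARX1, which are expressed in jaw mesenchyme, were counted in both. PAX9, HAND2 and SHOX2 were higher in MLC and counted in both, and are not assigned to jaw or limb here. The tissue origin of the MLC culture was not tested, and every difference named here as one of layers is a difference between the libraries labelled MLC and SLC.

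Of 14085 genes tested with edgeR, 2268 (16.1%) differed between the layers at an adjusted p under 0.05. Of these, 1306 (9.27%) were higher and 962 (6.83%) lower in MLC. The difference was at least 2-fold, a log2 fold change (log2FC) of at least 1, for 842 of the higher and 540 of the lower genes (9.81% of all genes tested), and at least 8-fold, a log2 fold change of at least 3, for 117 and 70. The median log2 fold change of all genes tested was -0.03. The libraries of the layers did not overlap for 2267 of the called genes and for 35.1% of all genes tested. With the replicate number as a block, 3887 genes were called, 2030 higher and 1857 lower. Leaving out the first SLC replicate raised the count to 4680, and leaving out the third SLC replicate or 1 MLC replicate lowered it to between 1140 and 1408, and most gene lists moved the same way. For the lists below, the counts without a named library or with the block follow where they differ from the main count by more than 1.5 times, and medians are those of the log2FC over the tested members. List counts stand against 9.27% higher and 6.83% lower among all genes tested. A member near 0 in 1 layer passed the filter on low counts only through the other, and is no support in a list's count. Among the called genes named below in these Results, CDKN1A was called in 1 of the 6 fits that left out 1 library. ACTA2, C1R, C3, CTSK, ERG, HAS2, IL11, LOXL2, SCRG1, THY1, VCAN and VWF were called in 2. ANKH, CD248, HAS1, HOXD8, LOX, LOXL1, LOXL4, MKX, PLOD2 and TNC were called in 3. COMP and PTGFR were called in 4, and EGR1, IL1R1 and PLAU in 5. Apart from ND4L, the others of these Results were called in 6.

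**Figure D1:**
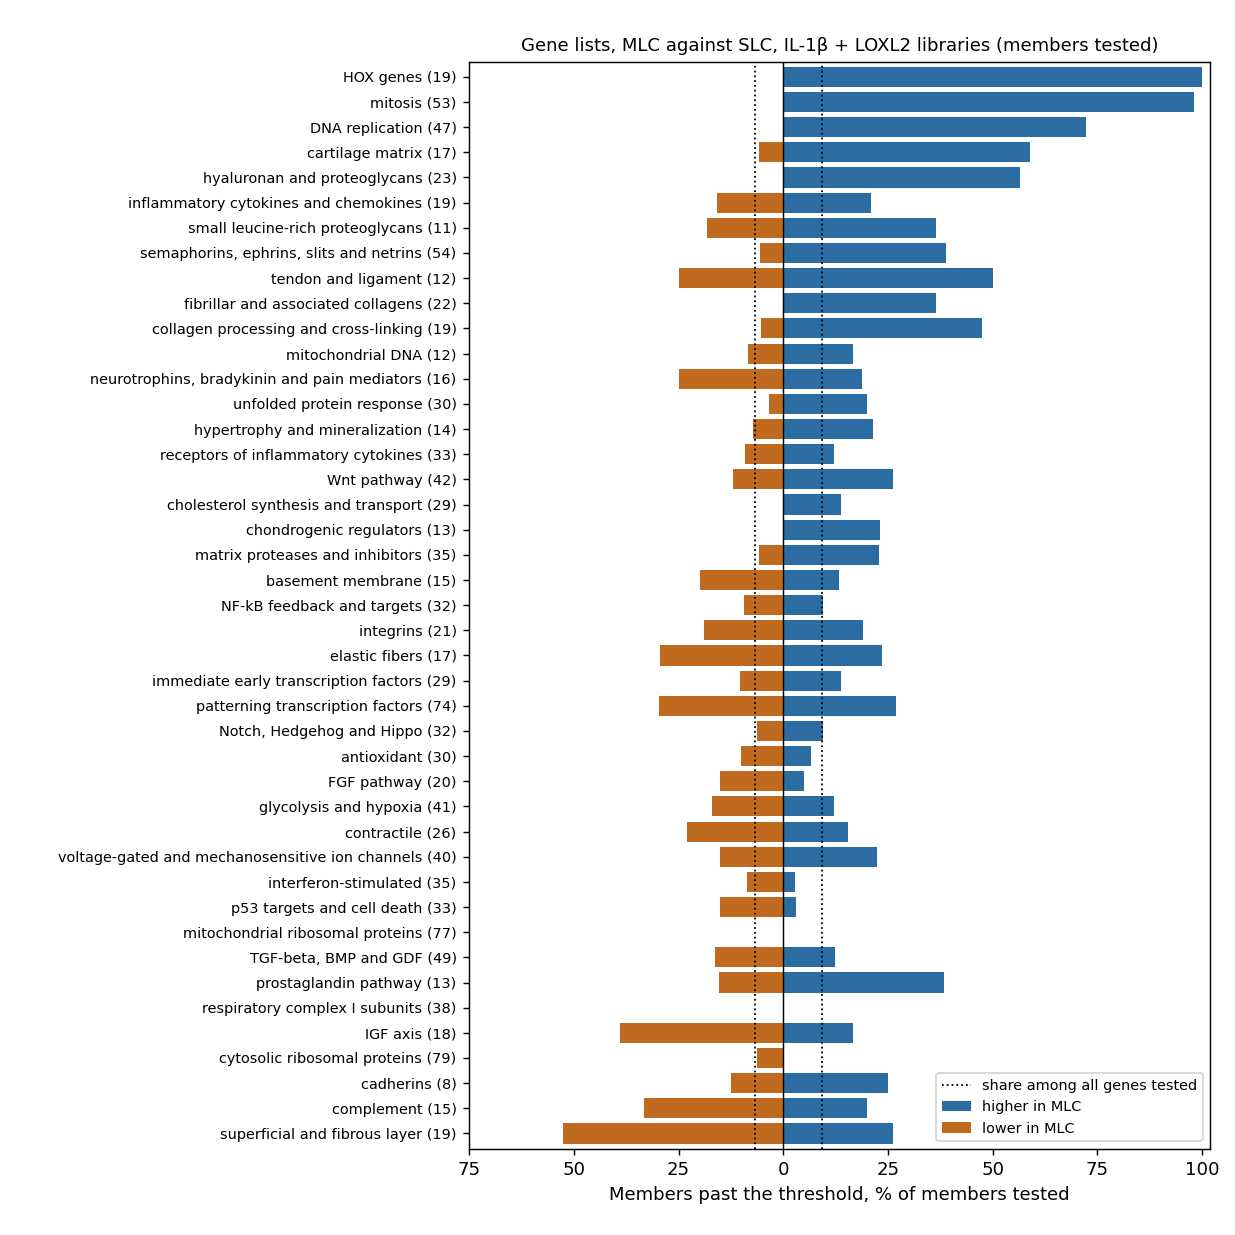
Share of the tested members of each gene list that were higher (right, blue) or lower (left, orange) in MLC than in SLC in the IL-1β + LOXL2 libraries, with the number tested in parentheses, in order of the median log2 fold change. Dotted lines mark the shares among all genes tested, 9.27% higher and 6.83% lower. HOX and mitosis genes stand at the top with 19 of 19 and 52 of 53 members higher.

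The same layer comparison in the 6 libraries with IL-1β alone, which share no library with the first, called 6547 of 13965 genes (46.9%), with 24.2% higher and 22.7% lower in MLC. Of the 2268 genes called with LOXL2, 2205 were tested there. The sign was the same for 2204 of these, against 79.8% of the 13761 genes tested in both comparisons. The direction was the same and the call was made in both for 2119 genes, which is 93.4% of the calls with LOXL2 and 32.4% of the calls with IL-1β alone. No gene was called in opposite directions. The interaction of layer and treatment was tested in all 12 libraries with edgeR and called 0 of 14534 genes (smallest adjusted p 0.959), with 328 genes (2.26%) at an unadjusted p under 0.05, and DESeq2 also called 0. Without the first SLC IL-1β + LOXL2 replicate it called 1 of 14718, with 3986 genes at an unadjusted p under 0.05. Leaving out any other library gave 212 to 507 such genes, so the near absence of small p-values depended on that replicate. With all 12 libraries, no layer difference was shown to depend on the label IL-1β + LOXL2, which is not evidence that none does.

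**Figure D2:**
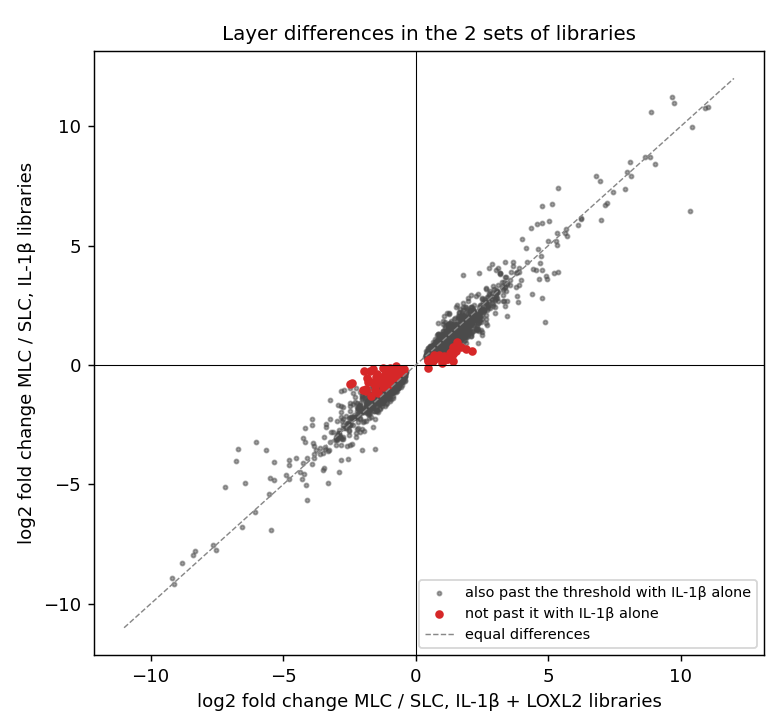
Log2 fold change of MLC over SLC in the IL-1β + LOXL2 libraries (x axis) and in the IL-1β libraries (y axis) for the 2205 genes called with LOXL2 and tested in both; black points were called in both and red points only with LOXL2, and the dashed line marks equal differences. All but 1 of the points lie in the quadrants of equal sign.

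HOX genes encode homeodomain factors that specify position along the body axis. The tables hold 37 HOX genes, 19 passed the filter on low counts, and all 19 of these were higher in MLC (0 lower, also at an unadjusted p under 0.05 and with DESeq2, which tested more of them and called 22 higher). A gene near 0 in SLC passes the filter only through MLC, so the count of 19 is no support by itself. The untested genes include all 9 HOXB genes, whose reads summed to 58 counts over the 3 SLC and 21 over the 3 MLC libraries. The tested genes were 9 of 11 in the HOXA cluster on chromosome 4, 7 of 9 in the HOXC cluster on chromosome 5 and 3 of 8 in the HOXD cluster on chromosome 2. Summed over all 37 genes, HOX CPM (counts scaled to a common library total) was 90.8 to 95 in MLC and 7.19 to 8.87 in SLC.

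HOXA9 (chromosome 4, 51331211 to 51337701 on the goat assembly ARS1.2, as are all positions here) had 246, 256 and 203 normalized counts in MLC and 0, 0 and 0 in SLC. With the limit of 3 counts that a count of 0 over the 3 libraries allows, it was at least 297-fold higher in MLC. HOXA10 had 152, 171 and 136 in MLC and 0 in every SLC library, at least 193-fold higher. These genes belong to the middle and posterior part of the cluster and were not detected in SLC at this depth. HOXA7 was at 179.5, 148 and 109.9 in MLC, again with 0 in each SLC library (at least 186-fold). HOXC6 had 174, 136 and 164 in MLC against 3.40, 0 and 5.91 in SLC (log2FC 5.71, standard error 0.57, adjusted p = 0.000760). HOXC10, a posterior gene, had 48.3, 53 and 34.3 in MLC and 0 in SLC, at least 56.7-fold higher. The 8 genes of the HOXD cluster had 463 counts over the 3 SLC libraries, where the HOXA genes had 10 and the HOXC genes 37. These sums carry no correction for gene length. HOXD9 had 312, 391 and 459 normalized counts in MLC and 26.4, 35 and 34.6 in SLC, a log2 fold change of 3.60 (adjusted p = 0.000166). HOXD8, the member with the smallest difference, had 152, 144 and 160.3 in MLC against 91, 65.9 and 59.9 in SLC (log2FC 1.08, adjusted p = 0.0127). The 2 layers did not overlap for either gene. The median log2 fold change over the 19 was 5.71 as fitted and 5.12 with the 8 genes at 0 in SLC set to their bound, and 18 or 19 were called in each fit that left out 1 library. With IL-1β alone, HOXA9 had 205, 287 and 209 in MLC and 0 in SLC. Reads of overlapping or antisense transcripts in these clusters cannot be told apart, since the strand setting of the counting is not given.

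**Figure D3:**
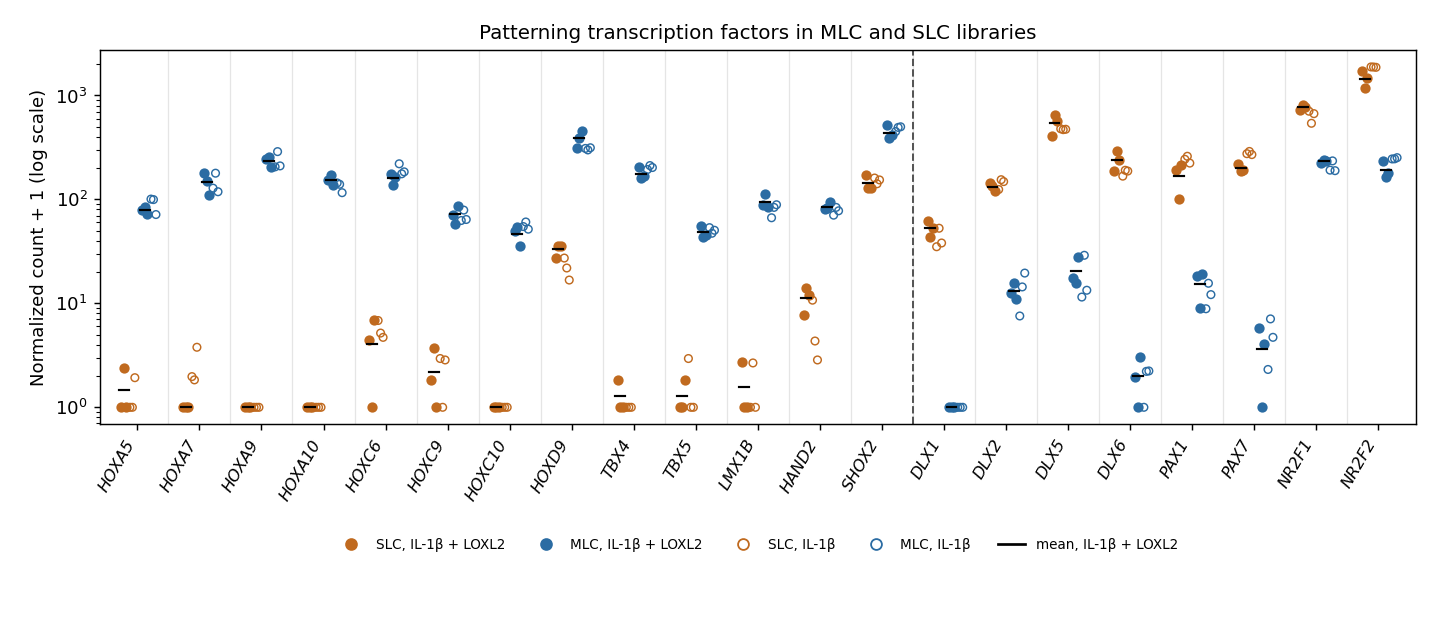
Normalized count plus 1 (log axis) of 21 patterning transcription factors in each library, SLC in orange and MLC in blue, filled for IL-1β + LOXL2 and open for IL-1β, with black bars at the IL-1β + LOXL2 means. Left of the dashed line, HOX, TBX, LMX1B, HAND2 and SHOX2 are higher in MLC; right of it, DLX, PAX and NR2F genes are higher in SLC, and HOXA9, HOXA10 and HOXC10 in SLC and DLX1 in MLC lie at 1, that is at 0 counts.

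Among 74 other patterning factors tested, 20 were higher and 22 lower in MLC (median log2FC 0.01). As for HOX, members near 0 in 1 layer passed the filter only through the other, so this count is no support by itself. T-box genes of limb fields were among the higher ones. TBX4, a hindlimb factor, had 203, 160.2 and 165 normalized counts in MLC and 0.851, 0 and 0 in SLC. This rests on 1 count in SLC, and the ratio of counts was 679 with an exact 95% counting interval of 121 to 26865. TBX5, its forelimb counterpart, had 55, 42.4 and 44.4 in MLC against 0, 0 and 0.844 in SLC, a ratio of 182 (32.2 to 7257) with 1 count in SLC. LMX1B, a dorsal limb factor, had 86.9, 113 and 83.7 in MLC against 1.70, 0 and 0 in SLC, a ratio of 177 (48.5 to 1469) with 2 counts in SLC. The MLC libraries thus held transcripts of factors known from both limb fields, each nearly absent from SLC. TBX3 (1083, 880.5 and 773 in MLC against 209, 186 and 198 in SLC), HAND2 (79.1, 80.8 and 92.8 in MLC against 6.81, 13 and 11 in SLC) and SHOX2 (514, 385 and 416 in MLC against 172, 128 and 129 in SLC) were higher in MLC but counted in both layers, and PITX1, which acts in both the jaw and the hindlimb, was not called (1040.5, 1159.8 and 1289 in MLC against 604, 963 and 784 in SLC, adjusted p = 0.0697).

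The opposite pattern was found for DLX genes, which pattern the pharyngeal arches. DLX5 (chromosome 4, 106264730 to 106269161) had 402, 652 and 566 normalized counts in SLC and 16.4, 14.6 and 27.2 in MLC, lower in MLC with a log2 fold change of -4.76 (adjusted p = 0.000175, standard error 0.29). Its neighbour DLX6 had 186, 291 and 239 in SLC against 0.965, 0 and 2.02 in MLC. Over the 3 MLC libraries DLX6 had 3 counts, and SLC exceeded MLC by a ratio of 225 (95% counting interval 76.8 to 1093). DLX1 had 60.4, 42.6 and 52.3 in SLC and no count in MLC, at least 47.4-fold lower in MLC. DLX2 was at 141, 134 and 118 in SLC against 11.6, 14.6 and 10.1 in MLC, and DLX4 at 232, 365 and 284 in SLC against 142, 119 and 129 in MLC, both lower in MLC (log2FC -3.43 and -1.16). DLX3 was not called, with 515, 523 and 593 in SLC against 473, 475 and 432 in MLC (adjusted p = 0.259). The DLX family was therefore not uniformly low in MLC, and its sum was 31.5 to 34.3 CPM there and 85.7 to 101 in SLC.

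Paired-box genes were split. PAX7, known from neural crest and muscle precursors, had 219, 187 and 192 in SLC against 4.83, 0 and 3.03 in MLC (log2FC -6.07, adjusted p = 0.000297), and PAX1 had 191, 100.2 and 213 in SLC against 17.4, 7.94 and 18.2 in MLC (log2FC -3.48, adjusted p = 0.00143). PAX9 went the other way, with 216, 217 and 207 in MLC against 57, 82.4 and 73.4 in SLC. The nuclear receptors NR2F1 (719, 810.2 and 769.8 in SLC against 222, 237 and 233 in MLC) and NR2F2 (1711, 1186 and 1458 in SLC against 236, 164 and 178 in MLC), both expressed in cranial mesenchyme, were lower in MLC. So were SIX2 (log2FC -1.60), FOXP2 (log2FC -1.70), EBF1 (log2FC -1.37) and TWIST2 (log2FC -1.74, adjusted p = 0.00155). Leaving out the third MLC replicate lowered the number of higher members from 20 to 13, and the number of lower members stayed between 19 and 26 over the 6 fits. BARX1, a marker of jaw mesenchyme, overlapped between the layers (1506, 1831 and 1901 in MLC against 922, 1727 and 1494 in SLC, adjusted p = 0.350).

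The cartilage matrix list held 17 tested genes, of which 10 were higher and 1 lower in MLC (median log2 fold change 0.86). COL2A1 (chromosome 5, 31857800 to 31888050), the chain of type II collagen, had 338, 233 and 335 normalized counts in MLC and 0, 0 and 0.844 in SLC. COL9A1, a chain of the type IX collagen on type II fibrils, had 282, 314 and 361 in MLC against 0, 0.687 and 0 in SLC. Both had a single count over the 3 SLC libraries, which gives ratios of 1177 (95% counting interval 211 to 46527) and 1216 (218 to 48098). They passed the filter on low counts only through MLC, so their part in the count of 10 is no support by itself. The defining collagens of hyaline cartilage were thus at or near 0 in SLC, whereas aggrecan was counted in both layers. ACAN, the aggrecan gene, had 7305, 6079 and 5727 in MLC against 1013, 545 and 652 in SLC (log2FC 3.12, standard error 0.26, adjusted p = 0.000439). HAPLN1, the link protein that fixes aggrecan to hyaluronan, had 392, 286 and 369 in MLC against 152, 83.8 and 98.8 in SLC (log2FC 1.66, adjusted p = 0.00464). COMP, a pericellular glycoprotein, had 2643, 3211 and 3262 in MLC against 1107, 1784 and 1608 in SLC (log2FC 1.03, adjusted p = 0.00970). For each of these the lowest MLC library was above the highest SLC library. COL11A1, which co-assembles with type II collagen, overlapped between the layers (22448, 18436 and 16202 in MLC against 21628, 11188 and 15081 in SLC, adjusted p = 0.551). The lower member, SCRG1, had 10.6, 10.6 and 11.1 in MLC against 26.4, 27.5 and 26.2 in SLC. Without the second or the third MLC replicate, 4 members were called higher, and SCRG1 was not called without the third SLC replicate or any 1 MLC replicate. Leaving out the first SLC replicate gave 2 lower members.

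SOX9, the master regulator of chondrogenesis, had 1602, 1439 and 1335 in MLC against 408, 257 and 339 in SLC, log2FC 2.13 higher on the log2 scale (adjusted p = 0.000570, standard error 0.19), and its partner SOX5 had 312, 201 and 205 in MLC against 106, 84.4 and 75.1 in SLC (log2FC 1.45, adjusted p = 0.00583). With PTH1R (18.3, 18.5 and 25.2 in MLC against 1.70, 2.06 and 4.22 in SLC), the receptor of parathyroid hormone-related protein, they were the 3 of 13 tested chondrogenic regulators (median 0.18) that were higher, and none was lower (edgeR and DESeq2, also at an unadjusted p under 0.05). PTH1R passed the filter on low counts only through MLC, so its part in the count of 3 is no support by itself. With at least 10 counts in every library, 2 of 11 were higher. When the first SLC replicate was left out, 5 were higher. Of 14 hypertrophy and mineralization genes (median 0.25), 3 were higher and 1 lower, against 6 and 2 with the replicate block or without the first SLC replicate, 6 higher without the second SLC replicate, and 0 lower without the third SLC or the second or the third MLC replicate. SPP1, osteopontin, had 1913, 1895 and 1884 in MLC against 370.1, 229 and 263 in SLC, and MGP, an inhibitor of calcification, 2228, 2602 and 2796 in MLC against 468, 829 and 663 in SLC (log2FC 2.73 and 1.97). ANKH, a pyrophosphate exporter, was the lower one, at 1574, 1332 and 1329 in MLC against 2386, 1929 and 2124 in SLC.

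**Figure D4:**
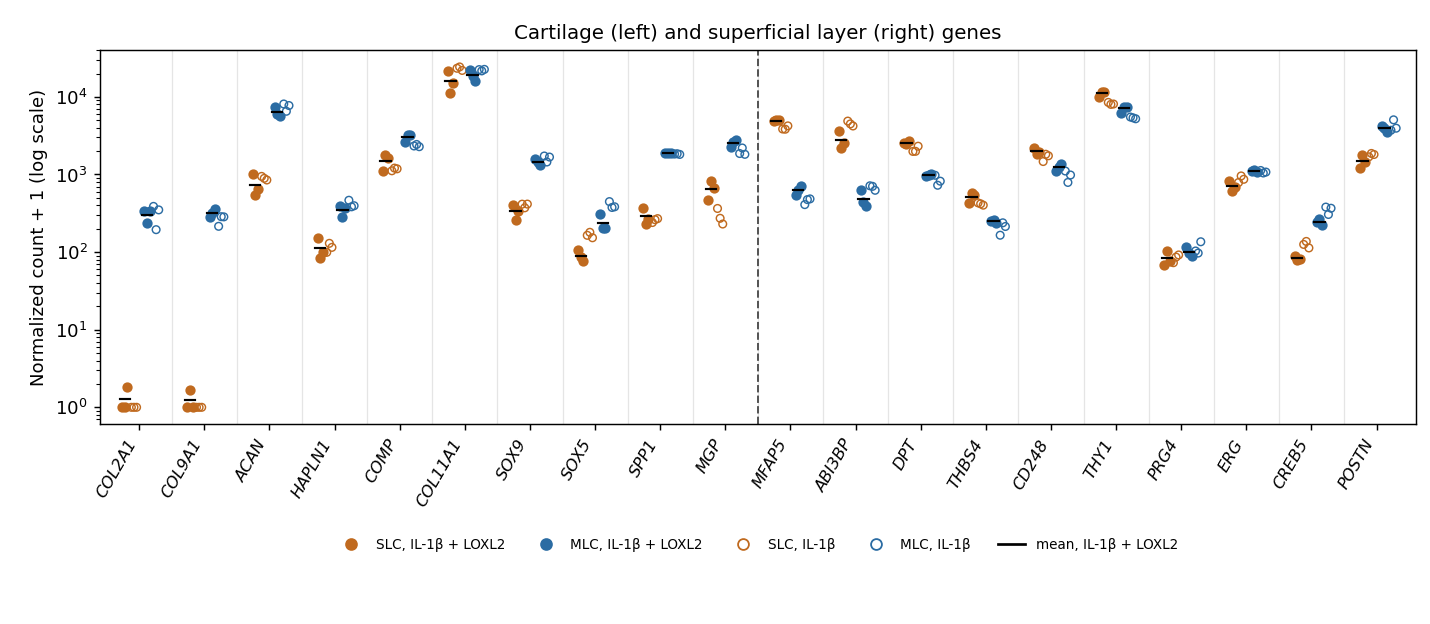
Normalized count plus 1 (log axis) of 10 cartilage or chondrogenic genes (left of the dashed line) and 10 genes of the superficial layer (right) in each library, SLC in orange and MLC in blue, filled for IL-1β + LOXL2 and open for IL-1β, with black bars at the IL-1β + LOXL2 means. COL2A1 and COL9A1 lie between 233 and 361 in the filled MLC points and at or below 1 count in SLC, PRG4 overlaps, and the right-hand genes go in both directions.

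Genes of the superficial and fibrous layer did not move one way. Of 19 tested, 10 were lower and 5 higher in MLC (median log2 fold change -0.63). MFAP5, a microfibril component, had 4829, 4999 and 4982 in SLC against 549, 637 and 705 in MLC (log2FC -2.96, standard error 0.14, adjusted p = 6.8e-05). ABI3BP, a matrix protein of connective tissue, had 3644, 2225 and 2532 in SLC against 624, 437 and 387 in MLC (log2FC -2.53, adjusted p = 0.000850). DPT, dermatopontin, had 2578, 2435 and 2704 in SLC against 942, 992 and 1002 in MLC (log2FC -1.38, adjusted p = 0.000405). CD34, DPP4, THBS4, CD248 and THY1, surface or matrix genes of fibroblasts, were lower too, with log2 fold changes from -3.18 to -0.63. On the other side, POSTN, periostin, had 4231, 4024 and 3555 in MLC against 1224, 1789 and 1463 in SLC (log2FC 1.41, adjusted p = 0.00115). PDPN (log2FC 1.28), TNC (log2FC 1.43), CREB5 (log2FC 1.58) and ERG (log2FC 0.66), the last of these a transcription factor of articular cartilage, were higher in MLC. PRG4, which encodes the surface lubricant lubricin, overlapped between the layers, at 116, 96.7 and 88.7 in MLC against 68.1, 102 and 76 in SLC (log2FC 0.30, adjusted p = 0.411). Of 9 superficial layer markers, 5 were lower and 3 higher in MLC, so the marker list does not name the SLC by itself. The count of higher genes was 3 without the third SLC or the first or second MLC replicate. Of 12 tendon and ligament genes (median 0.39), 6 were higher, again 3 without any 1 of those libraries, and 3 were lower. The tendon regulator MKX had 537, 474 and 444 in MLC against 288, 168 and 232 in SLC (log2FC 1.09, adjusted p = 0.0127), and TNXB, tenascin-X, 5.79, 5.30 and 3.03 in MLC against 28.9, 21.3 and 21.9 in SLC (log2FC -2.32, adjusted p = 0.00565). In bulk RNA, fewer cells of a type and less RNA per cell cannot be told apart.

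Of 22 fibrillar and associated collagen genes, 8 were higher in MLC (median log2 fold change 0.38) and none was lower with edgeR, although 3 were lower at an unadjusted p under 0.05 or with the replicate block, 2 with DESeq2, and 1 without the first or the second SLC replicate. COL1A1, the main chain of type I collagen, overlapped between the layers (648648, 665520 and 637709 in MLC against 705944, 629518 and 693328 in SLC, log2FC -0.05, adjusted p = 0.857). COL3A1 had 367321, 333425 and 319028 in MLC against 194475, 172653 and 186371 in SLC (log2FC 0.89, adjusted p = 0.00409). The fibril-associated COL12A1 had 66227, 50060.2 and 41397 in MLC against 22263, 11037 and 14470.1 in SLC (log2FC 1.73, adjusted p = 0.00698), and the minor fibrillar chains COL5A3 (log2FC 1.97) and COL27A1 (log2FC 1.83) were also higher. Basement membrane collagen went the other way, with COL4A1 at 1654, 1658 and 1314 in MLC against 5553, 4746 and 5261 in SLC (log2FC -1.74, adjusted p = 0.000423) and COL4A2 at a log2 fold change of -1.03. Of 15 basement membrane genes (median 0.11), 3 were lower and 2 higher (4 higher without the first SLC replicate and 1 without the third SLC or the first or second MLC replicate).

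Of 11 small leucine-rich proteoglycans (median 0.52), which bind collagen fibrils, 4 were higher, among them DCN (57683, 52614 and 52167 in MLC against 24733, 29055 and 27711 in SLC) and LUM (33058, 29378 and 29058 in MLC against 14759, 14610.4 and 14709 in SLC), and 2 were lower. PODN, podocan, was the lower one with the larger difference, at 168, 266 and 196 in MLC against 1561, 1304 and 1334 in SLC (log2FC -2.73, adjusted p = 0.000297). The higher count was 7 with the block or without the first SLC replicate and 2 without the third SLC or the first or the third MLC replicate, and the lower count was 1 without the second or the third MLC replicate. Elastic fiber genes were split, with 4 of 17 higher and 5 lower (median 0.06, and 2 higher without the third SLC replicate or any 1 MLC replicate). FBLN2, fibulin-2, had 6585, 7838 and 7677 in MLC against 21488, 27539 and 24920.1 in SLC (log2FC -1.73, adjusted p = 0.000427) and FBLN5 539, 543 and 517 in MLC against 2461, 1370.4 and 1754 in SLC, whereas EMILIN1 had 4578, 4894 and 5614 in MLC against 1613, 1721 and 1831 in SLC (log2FC 1.56, adjusted p = 0.000409). Of 19 collagen processing and cross-linking genes (median 0.35), 9 were higher and 1 lower (2 lower with the block or without the first SLC replicate). Only 2 to 4 were higher without the third SLC replicate or any 1 of the MLC replicates. The lower gene was lysyl oxidase LOX (10867, 8666 and 8069.9 in MLC against 19081, 13277 and 14294 in SLC), which was not called without the third SLC or the second or the third MLC replicate, while its relatives LOXL1 (log2FC 0.55), LOXL2 and LOXL4 (log2FC 1.61) and the lysyl hydroxylases PLOD1 (log2FC 0.83) and PLOD2 (log2FC 1.17) were higher in MLC.

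Hyaluronan and proteoglycan genes were higher in MLC in 13 of 23 cases (median log2 fold change 0.63) and lower in 0 with edgeR and DESeq2 (2 with the replicate block or by the unadjusted p, 1 without the first SLC replicate). TNFAIP6, an inflammation-induced hyaluronan-binding protein, had 166, 172 and 196 in MLC against 28.9, 36.4 and 35.4 in SLC (log2FC 2.41, adjusted p = 0.000373). The hyaluronan synthases HAS1 (73.4, 86.1 and 90.8 in MLC against 44.2, 31.6 and 38.8 in SLC) and HAS2 (207, 136 and 146 in MLC against 93.6, 50.1 and 59.1 in SLC) were both higher. CSPG4 (log2FC 1.46), SDC2 (log2FC 1.40) and VCAN (log2FC 1.00), which encode proteoglycan core proteins, followed. Without the third SLC or the second or the third MLC replicate the count was 7 or 8.

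Matrix proteases and their inhibitors showed 8 of 35 higher (median 0.14) and 2 lower. MMP3, stromelysin-1, had 3591, 3952 and 3759 in MLC against 50.2, 187 and 123 in SLC, 31.5-fold higher (log2FC 4.98, standard error 0.42, adjusted p = 0.000479). MMP1, interstitial collagenase, had 792, 866 and 759 in MLC against 46.8, 154 and 109.7 in SLC (log2FC 2.97, adjusted p = 0.00173). The first SLC replicate was the lowest SLC library for both genes. The aggrecanase ADAMTS4 had 625, 716 and 521 in MLC against 197, 214 and 229.6 in SLC (log2FC 1.55, adjusted p = 0.000824), and the related ADAMTS1 1737, 1448 and 1377 in MLC against 490.1, 327 and 455 in SLC (log2FC 1.85, adjusted p = 0.000852). ADAMTS5, the other main aggrecanase, overlapped, with 2389, 1695 and 1275 in MLC against 2103, 1319.6 and 1471 in SLC (adjusted p = 0.776, 0.14 on the log2 scale), and its direction turned to -0.12 without the first MLC replicate. MMP13, collagenase 3, had 140.0, 158 and 91.8 in MLC against 5.96, 52.9 and 44.7 in SLC. The groups did not overlap, but the spread in SLC was wide and the adjusted p was 0.07 (log2FC 1.91), or 0.013 with the replicate block. CTSK, cathepsin K, and PLAU, urokinase, were the lower ones (log2FC -0.51 and -0.71). Without the third SLC or the first MLC replicate, 5 genes were higher and 1 lower, and without the second MLC replicate 5 and 0.

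Prostaglandin genes were called in 7 of 13 cases (median -0.23), 5 higher and 2 lower. PTGS2, the inducible cyclooxygenase COX2, had 5812, 5260.4 and 4400.5 in MLC against 485, 1068 and 885 in SLC (log2FC 2.68, standard error 0.28, adjusted p = 0.000923). PTGS1, the constitutive cyclooxygenase, had 265, 238 and 258 in MLC against 23.8, 19.9 and 26.2 in SLC (log2FC 3.46, adjusted p = 9.49e-05). PLA2G4A, which releases their substrate arachidonic acid, had 2176, 2007 and 1848 in MLC against 521, 769 and 652 in SLC (log2FC 1.65, adjusted p = 0.000680). These 3 genes were higher in every MLC library. PTGER4, a prostaglandin E2 receptor, was lower, with 112, 83.4 and 71.6 in MLC against 509, 260.2 and 342 in SLC (log2FC -2.05, adjusted p = 0.00359), as was the thromboxane receptor TBXA2R (log2FC -1.09), while the prostaglandin F receptor PTGFR was higher (log2FC 0.95). Without the first SLC replicate, 4 members were lower.

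**Figure D5:**
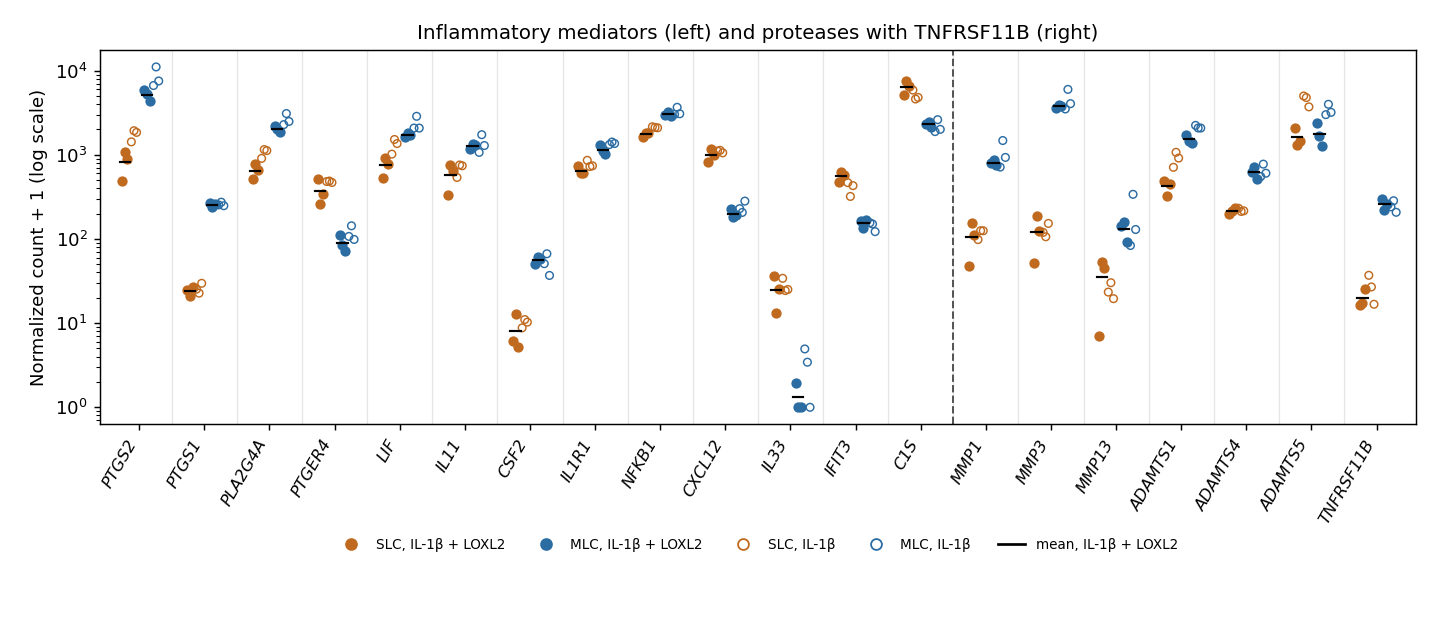
Normalized count plus 1 (log axis) of 13 inflammatory mediator genes (left of the dashed line) and of 6 matrix protease genes with TNFRSF11B (right) in each library, SLC in orange and MLC in blue, filled for IL-1β + LOXL2 and open for IL-1β, with black bars at the IL-1β + LOXL2 means. PTGS2, PTGS1, MMP1, MMP3 and TNFRSF11B are higher in all filled MLC points, CXCL12, IL33, IFIT3 and C1S lower, and ADAMTS5 overlaps.

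Of 19 inflammatory cytokines and chemokines tested (median 0.53), 4 were higher and 3 lower in MLC (9 higher with the replicate block and 8 without the second SLC replicate). CSF2 and IL33 passed the filter on low counts only through 1 layer, so their part in these counts is no support by itself. CSF2, the growth factor GM-CSF, had 49.2, 59.6 and 56.5 in MLC against 5.11, 11.7 and 4.22 in SLC (log2FC 2.93, adjusted p = 0.00219). LIF, a cytokine of the interleukin-6 family, had 1607, 1831 and 1718 in MLC against 536, 923 and 782 in SLC (log2FC 1.22, adjusted p = 0.00531), and IL11 of the same family 1157, 1337 and 1309 in MLC against 328, 755 and 649.9 in SLC (log2FC 1.15, adjusted p = 0.0287). CXCL12, a homing chemokine, was lower, with 228, 181 and 189.6 in MLC against 827, 1179.5 and 984 in SLC (log2FC -2.31, adjusted p = 0.000297), as were its scavenging receptor ACKR3 (5108, 5166 and 4929.9 in MLC against 10853, 12428 and 12560 in SLC) and the alarmin IL33 (0.965, 0 and 0 in MLC against 34.9, 12.4 and 24.5 in SLC, with 1 count in MLC and an SLC over MLC ratio of 64.2, 95% counting interval 11.2 to 2563). Among 33 cytokine receptors (median 0.22), 4 were higher and 3 lower (10 and 6 with the block or without the first SLC replicate). IL1R1, the receptor of IL-1β, had 1311, 1121 and 1027 in MLC against 736, 604 and 599 in SLC (log2FC 0.84, adjusted p = 0.00819). TNFRSF11B, the decoy receptor osteoprotegerin, had 297, 219.8 and 257 in MLC against 15.3, 16.5 and 24.5 in SLC (log2FC 3.79, adjusted p = 0.000198). Targets and feedback regulators of NF-κB, the factor activated by IL-1β, were near the background, with 3 of 32 higher and 3 lower (median 0.08, and 6 higher with the block, 6 and 8 without the first SLC replicate, and 0 lower without the third SLC replicate or any 1 MLC replicate), although NFKB1 itself had 2984, 3202 and 2895 in MLC against 1637, 1808 and 1822 in SLC (log2FC 0.80, adjusted p = 0.00268).

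Complement genes were called in 8 of 15 cases (median -0.48), 5 lower and 3 higher, with 1 lower call left without the third SLC replicate or any 1 MLC replicate. The proteases that start the classical pathway, C1S (2322, 2422 and 2145 in MLC against 5171, 7520.1 and 6656 in SLC) and C1R (1895, 2222 and 1977 in MLC against 3201, 7329.9 and 5376 in SLC), and the central component C3 (9891, 9059 and 7902 in MLC against 12098, 21543 and 17872 in SLC) were lower. MASP1 of the lectin pathway was higher (1084, 1014 and 1020.5 in MLC against 179, 167 and 181 in SLC). Of 35 interferon-stimulated genes (median -0.11), 1 was higher and 3 lower (4 and 6 with the block, 4 and 11 without the first SLC replicate, 2 higher without the second, and 1 lower without the third SLC replicate or any 1 MLC replicate). The main counts were 2.86% higher and 8.57% lower, against 9.27% and 6.83% of all genes tested. IFIT3 was the lower one with the largest difference (161, 135 and 167 in MLC against 479, 628 and 582 in SLC, log2FC -1.85, adjusted p = 0.000470). Immediate early transcription factors, which respond to stimulation within minutes, were near the background, with 4 of 29 higher (13.8%, median 0.04) and 3 lower (10.3%). EGR1 had 1246, 993 and 931 in MLC against 2608, 1813 and 2064 in SLC (log2FC -1.03, adjusted p = 0.00865), and FOSL1, a subunit of AP-1, 2131, 1856 and 1794 in MLC against 881, 599 and 802 in SLC (log2FC 1.35, adjusted p = 0.00212). The lower count was 7 with the block, the counts were 7 and 6 without the first SLC replicate, 2 were higher without the third SLC replicate, and 2 and 1 were called without the second MLC replicate.

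The growth factor genes that were called went in both directions. Of all genes tested, 9.27% were higher and 6.83% lower in MLC. In the IGF axis, 7 of 18 were lower (median -0.38) and 3 higher (3 lower without the second MLC replicate). IGF1 (chromosome 5, 64862983 to 64943172), an anabolic factor for chondrocytes and fibroblasts, had 52.1, 49 and 52.4 in MLC against 1247, 883 and 912 in SLC, 19.6-fold lower in MLC (log2FC -4.30, standard error 0.20, adjusted p = 6.8e-05). The binding protein IGFBP4 had 1300.1, 1307 and 1326 in MLC against 3399, 4659 and 4884 in SLC (log2FC -1.71, adjusted p = 0.000555), whereas IGFBP3 was higher in MLC (191, 158 and 150.2 in MLC against 64.7, 50.1 and 60.8 in SLC). The ligand and a main binding protein were thus lower in MLC together. In the Wnt pathway, 11 of 42 were higher (median 0.22) and 5 lower. WNT5A, a ligand of non-canonical signaling, had 2493, 2001 and 1875 in MLC against 467, 473 and 489 in SLC (log2FC 2.17, adjusted p = 0.000212). Of the secreted antagonists, FRZB had 113, 114 and 107 in MLC against 10.2, 6.18 and 5.91 in SLC (log2FC 3.90, adjusted p = 0.000279), and SFRP1 the reverse, 684, 585 and 589 in MLC against 3840.2, 3101 and 3529 in SLC (log2FC -2.49, adjusted p = 0.000110). The canonical targets AXIN2 (log2FC 1.27) and LEF1 (log2FC 2.43) were higher in MLC. The higher count was 17 without the first SLC replicate, and the lower count was 2 without the second MLC replicate and 3 without the third SLC or the third MLC replicate.

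In the TGF-β, BMP and GDF list, 8 of 49 were lower (median -0.18) and 6 higher (14 lower with the replicate block, 13 without the first SLC replicate, and 3 higher without the third SLC or the second or the third MLC replicate). The main counts were 16.3% of the members lower and 12.2% higher, against 6.83% and 9.27% of all genes tested. BMP6 had 2.90, 2.65 and 5.04 in MLC against 34, 72.8 and 51.5 in SLC (log2FC -3.83, adjusted p = 0.00140), the receptor BMPR1B 14.5, 10.6 and 7.06 in MLC against 96.2, 70.0 and 65 in SLC (log2FC -2.82) and the BMP antagonist NOG 26.1, 27.8 and 21.2 in MLC against 70.6, 135 and 102 in SLC (log2FC -2.03). BMP4 (1276, 1311 and 1183 in MLC against 752, 496 and 639 in SLC) and GDF6 (358, 318 and 279 in MLC against 126, 119 and 128 in SLC) were higher in MLC. Ligands of this family therefore differed in direction. Of 20 FGF genes (median -0.07), 1 was higher and 3 lower (3 higher with the block or without the first SLC replicate). The main counts, 5% higher and 15% lower, rest on few genes. FGFRL1, a receptor without a kinase domain, had 411, 399 and 534 in MLC against 48.5, 63.2 and 54 in SLC (log2FC 3.03, adjusted p = 0.000177), FGF13 had 2.90, 13.2 and 19.2 in MLC against 160.0, 185 and 181 in SLC, and FGF5 had no count in MLC and 20.4, 10.3 and 19.4 in SLC, at least 15.1-fold lower. Notch, Hedgehog and Hippo genes were near the background, with 3 of 32 higher and 2 lower (median 0.01, and 6 and 4 without the first SLC replicate, and 1 higher without the third SLC or second MLC replicate). BOC, a Hedgehog co-receptor, had 105, 75.5 and 95.8 in MLC against 326, 240.3 and 212 in SLC (log2FC -1.48, adjusted p = 0.00426).

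Semaphorins, ephrins, slits, netrins and their receptors, which guide axons and migrating cells, were higher in MLC in 21 of 54 cases (median 0.50) and lower in 3 (8 lower with the replicate block, 5 and 6 lower without the first and the second SLC replicate, and 12 or 13 higher without the third SLC or the second or the third MLC replicate). SEMA3A had 284, 199.9 and 219 in MLC against 70.6, 27.5 and 40.5 in SLC (log2FC 2.36, adjusted p = 0.00381), the ephrin receptor EPHB2 165, 176 and 180.5 in MLC against 43.4, 52.2 and 39.7 in SLC (log2FC 1.95, adjusted p = 0.000625) and the netrin receptor UNC5B 1888, 1474 and 1321 in MLC against 709.7, 317 and 391 in SLC (log2FC 1.73, adjusted p = 0.00914). Of 8 cadherins (median -0.46), 2 were higher and 1 lower, and 1 or 2 were called in each direction when 1 library was left out. CDH2, N-cadherin, had 3590.5, 2897 and 2751 in MLC against 676, 533 and 536 in SLC (log2FC 2.41, adjusted p = 0.000251). The collagen-binding integrin subunits ITGA10 (783, 667 and 612 in MLC against 245, 113 and 144 in SLC) and ITGA11 (1985, 1938 and 1614 in MLC against 619, 289.7 and 392 in SLC) were higher in MLC, and ITGB3 (142, 144 and 128 in MLC against 838, 330.2 and 452 in SLC) was lower, within a list of 21 (median 0.06) in which 4 were higher and 4 lower (7 higher with the block and 8 without the first SLC replicate). Of 40 ion channel genes (median -0.11), 9 were higher and 6 lower. The mechanosensitive channel PIEZO1 had 6139.5, 6056 and 5688 in MLC against 3804, 3705 and 3681 in SLC (log2FC 0.69, adjusted p = 0.00392), TRPV2 1410.1, 1591 and 1631 in MLC against 447, 660.5 and 617 in SLC, and the calcium channel subunit CACNA1C 60.8, 53 and 44.4 in MLC against 447, 249.9 and 287 in SLC (log2FC -2.63, adjusted p = 0.000954). In a list of 16 neurotrophin and pain genes (median 0.28), 3 were higher and 4 lower (7 higher with the block and 5 without the first SLC replicate), among them GDNF (643, 593 and 600.0 in MLC against 192, 139 and 177 in SLC, log2FC 1.86) and the neurotrophin receptor NTRK3 (19.3, 17.2 and 10.1 in MLC against 86.8, 95.4 and 86.1 in SLC, log2FC -2.51). Contractile genes, 4 of 26 higher and 6 lower (median -0.10, and 7 and 10 with the block, 10 lower without the first SLC replicate, and 2 or 3 lower without the third SLC replicate or any 1 MLC replicate), included ACTA2, smooth muscle actin, at 19776, 24849 and 25446 in MLC against 35569.7, 31316 and 37078 in SLC (log2FC -0.56, adjusted p = 0.0435).

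Genes of cell division were higher in MLC. Of 53 mitosis genes tested, 52 were higher (98.1%, median log2 fold change 1.47), and 43 to 53 were in each fit that left out 1 library. MKI67, a proliferation marker, had 3388, 3099.6 and 3072 in MLC against 1324, 932 and 899 in SLC (log2FC 1.61, standard error 0.18, adjusted p = 0.00114). TOP2A, which untangles chromosomes, had 2814, 2122 and 2121 in MLC against 1055, 463 and 594 in SLC (log2FC 1.75, adjusted p = 0.00854). The mitotic kinase CDK1 had 871, 839 and 878 in MLC against 340.4, 249.9 and 264 in SLC (log2FC 1.61, adjusted p = 0.000683). The libraries of the layers did not overlap for these genes, and the summed mitosis list was 2320 to 2549 CPM in MLC and 759 to 1190 in SLC. Of 47 DNA replication genes, 34 were higher (median log2 fold change 1.04) and none of either list was lower with edgeR, at an unadjusted p under 0.05 or with DESeq2. The replicative helicase gene MCM5 had 1505, 1451 and 1815 in MLC against 465, 425 and 469 in SLC (log2FC 1.82, adjusted p = 0.000316), and E2F1, a transcription factor of S phase entry, 464, 451 and 517 in MLC against 140.4, 87.2 and 109 in SLC (log2FC 2.10, adjusted p = 0.000680). Of 33 p53 targets and cell death genes (median -0.13), 5 were lower and 1 higher (9 lower with the replicate block, 8 without the first SLC replicate and 2 without the third SLC replicate or any 1 MLC replicate, with 0 higher without the third SLC or second MLC replicate). They included the cell cycle inhibitor CDKN1A (3215, 3276 and 3260.0 in MLC against 4248, 4445 and 4433 in SLC, log2FC -0.42) and CCNG1 (log2FC -0.69).

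Genes of the basic cell machinery stood apart from this. With edgeR, 0 of 77 mitochondrial ribosomal protein genes (median -0.16) and 0 of 38 respiratory complex I genes (median -0.28) were called, with 4 of each lower and 0 higher at an unadjusted p under 0.05 and 1 and 0 lower with DESeq2. The replicate block gave 3 and 6 lower, and leaving out the first SLC replicate gave 16 and 19. Of 79 cytosolic ribosomal protein genes (median -0.43), 5 were lower and 0 higher with edgeR, whereas 29 were lower with the block, 66 without the first SLC replicate and 1 without any other library (DESeq2 called 11 lower and 1 higher). The share of counts on these genes was 5.25%, 9.28% and 7.36% in SLC replicates 1, 2 and 3 and 4.66%, 5.51% and 6.21% in MLC. It was lower in MLC at each replicate number, but the ranges of the layers overlapped. A two-sided exact permutation test that ignored the numbers gave p = 0.3, where 0.1 is the smallest possible. That share moved with the ribosomal counts, and its part in the result was not tested. RPL39, the ribosomal gene with the largest difference, had 667, 618 and 771 in MLC against 1224, 2349 and 1834 in SLC (log2FC -1.38, adjusted p = 0.00629). Near-identical copies of ribosomal protein genes make these counts uncertain. Of 12 genes of mitochondrial DNA (median 0.31), 2 were higher and 1 lower (4 and 2 with the block or without the first SLC replicate, 1 higher without any other library), and ND4L, the lower one, was not called without the third SLC replicate or any 1 MLC replicate. The share of counts on mitochondrial DNA was 0.203% to 0.220% in MLC and 0.137% to 0.184% in SLC (p = 0.1, two-sided exact permutation test).

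Among metabolic genes, hypoxia and glycolysis members were called in 12 of 41 cases (median -0.07), 5 higher and 7 lower (12 lower without the first SLC replicate, and 2 or 3 higher and 1 to 3 lower without the third SLC replicate or any 1 MLC replicate). CA12, a carbonic anhydrase, had 8313, 7998 and 7524 in MLC against 1257, 2662 and 2168 in SLC (log2FC 1.98, adjusted p = 0.00194), and the lactate exporter SLC16A3 1192, 1325 and 1330.0 in MLC against 290.2, 509 and 385 in SLC (log2FC 1.71), while NDRG1 had 3691, 3852 and 3607 in MLC against 6479, 10812 and 9672 in SLC (log2FC -1.26, adjusted p = 0.00373). Of 30 unfolded protein response genes (median 0.26), 6 were higher and 1 lower (10 higher with the block, 13 without the first SLC replicate and 3 without the third SLC or the second or the third MLC replicate). The endoplasmic reticulum chaperones HSP90B1 (log2FC 0.79), CALR (log2FC 0.69) and PDIA4 (log2FC 0.76) were higher in MLC, and DDIT3, a stress-induced factor, was lower (924, 976 and 990.2 in MLC against 1572, 2339 and 1836 in SLC). Cholesterol genes were near the background, with 4 of 29 higher (median 0.22) and 0 lower with edgeR (DESeq2 and the unadjusted p each gave 1 lower). With the block or without the first SLC replicate 8 were higher and 1 lower, and 2 were higher without the third SLC or second MLC replicate. Antioxidant genes were near it too, with 2 of 30 higher (median -0.04) and 3 lower (5 and 5 with the block, 4 and 7 without the first SLC replicate, 1 higher without the third SLC or the second or the third MLC replicate, and 1 lower without the second MLC replicate).

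Several of the genes with the largest differences belong to no list. F13A1 (chromosome 23, 16707927 to 16848171), which encodes the transglutaminase factor XIII A, had 4196, 3139 and 3292 in MLC against 6.81, 6.87 and 6.75 in SLC (log2FC 9.01, standard error 0.21, adjusted p = 3.97e-06). GREB1, known as an estrogen-responsive gene, had 1588, 1309 and 1169.7 in MLC against 5.96, 1.37 and 1.69 in SLC (log2FC 8.83, adjusted p = 6.49e-05), and B4GALNT3, a glycosyltransferase, 196, 238 and 224 with no count in SLC, at least 277-fold higher. ASIP (chromosome 13, 63228709 to 63249542), the agouti signaling protein that antagonizes melanocortin receptors, was the other extreme, with 8.69, 9.27 and 7.06 in MLC against 1744, 3898 and 2617 in SLC (log2FC -8.34, adjusted p = 7.27e-05). These genes had the same direction with IL-1β alone, where ASIP had 5.25, 4.87 and 8.66 in MLC and 1349, 1300.2 and 1619 in SLC. SYT8 (log2FC 6.23) was also higher in MLC. PPP2R2B (log2FC -5.36), a phosphatase subunit, NTM (log2FC -4.79), ABLIM1 (log2FC -4.36), CHN1 (log2FC -4.25), AMIGO2 (log2FC -3.84), PVR (log2FC -3.83), and BEND5 (log2FC -3.78) were lower in MLC. Each gene of this paragraph was called in all 6 fits that left out 1 library.

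Of the epithelial genes with large differences, KRT14 had 156, 173 and 277 in MLC against 6.81, 0.687 and 5.06 in SLC, KRT19 212, 213 and 296 in MLC against 4.25, 4.12 and 1.69 in SLC, and SFN, an epithelial 14-3-3 protein, 117, 172 and 176 in MLC against 2.55, 5.49 and 5.91 in SLC (log2FC 5.64, 6.11 and 5.02). The summed epithelial marker list was 8.79 to 14.6 CPM in MLC and 0.759 to 0.899 in SLC, through KRT14 alone. Its other members EPCAM, CDH1, KRT8 and KRT18 summed to 5, 4, 1 and 0 counts over the 3 MLC and to 31, 8, 2 and 4 over the 3 SLC libraries, and KRT5 was at 0 in both. Muscle markers were 0.564 to 0.794 CPM in MLC and 9.95 to 13 in SLC, through PAX7, while MYOD1 had 0 counts in MLC and 4 in SLC. Endothelial markers were 3.60 to 4.65 CPM in MLC and 2.97 to 3.25 in SLC, with TIE1 and EMCN at 0, and leukocyte markers were 82.8 to 100 and 59.2 to 91.9, mostly CD14, with PTPRC at 2 counts in MLC and 1 in SLC. The leukocyte sums of the layers overlapped, and the endothelial sums did not, with VWF higher in MLC (log2FC 1.06) and PECAM1 at 3 counts in MLC and 26 in SLC. TEK was not called. Schwann cell markers, 97.0 to 110 CPM in MLC and 38.0 to 42.8 in SLC, moved through S100B (1779, 1835 and 2067 in MLC against 653, 748 and 787 in SLC), a gene that chondrocytes also express, with SOX10 at 0 counts in MLC. Adipocyte markers were 7.31 to 8.74 in MLC and 17.1 to 19.5 in SLC through CIDEC (log2FC -1.31), and osteoclast markers 2046 to 2264 and 3103 to 3182 through CTSK, which fibroblasts also express, with OCSTAMP at 0. Osteoblast markers were 3.70 to 4.37 and 2.18 to 3.70, with DMP1 at 0, and smooth muscle markers 1434 to 1731 and 1699 to 2228. The fibroblast list was at 59027 to 77219 CPM in the 6 libraries. All 7 tested chondrocyte markers, with the filter limit given above, were higher in MLC, at a sum of 603 to 673 against 137 to 151. The part of any other cell type in these results was not tested.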

How the data were processed

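RNA was extracted with a column kit per the labels and with TRIzol per the study's methods. The authors deposited gene counts per library, one table per cell type. Reads were mapped to the goat assembly ARS1.2 (HISAT2 is named in the submitters' processing notes) and counted with featureCounts, whose version the study's methods state. The HISAT2 version and the strand setting are not given in the sources used here. Values are raw counts for 28910 rows, of which 26 carry date names in place of symbols. Gene names of both tables were identical. RefSeq's goat table of the same assembly gave synonyms, positions and gene spans by symbol.

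From the counts, genes were filtered with filterByExpr (minimum count 10, minimum total 15), scaled by TMM and tested with edgeR's quasi-likelihood test (edgeR 4.0.16, limma 3.58.1, R 4.3.3) in the 6 IL-1β + LOXL2 libraries, MLC minus SLC, with Benjamini-Hochberg adjustment over all genes tested with calls made under 0.05. Standard errors were derived from the test statistic. Printed per-library values are counts divided by DESeq2's size factors (DESeq2 1.42.0). They carry no correction for gene length, so counts of different genes or clusters set side by side do not compare their levels. Genes at 0 in a group are given against 3 counts over its 3 libraries; intervals and bounds cover counting error only. The same fit was made in the 6 IL-1β libraries, and layer by treatment in all 12. The code was tested on simulated counts. No column was left unused apart from names.

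Members and gene lists were chosen with earlier results of these data known. Of the list names, 64 were not in the table and 1 was matched by a synonym. Named were the 15 called genes with the largest and the 15 with the smallest log2 fold change among those with a mean of at least 100 in the higher layer and no overlap, 9 genes of the study, up to 6 called members per direction of each list, and cell type markers, some of which are not reported here. Chosen after their values were seen were HOXD8, HOXD9, TBX3, SHOX2, PAX9, PITX1, BARX1, DLX3, DLX4, NR2F1, NR2F2, SIX2, FOXP2, EBF1, TWIST2, COL11A1, LOXL1, HAS1, HAS2, VCAN, AXIN2, UNC5B, PIEZO1, MKI67 and CDK1.

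Replicate numbers come from the labels. Deviations from the group means correlated between same-numbered MLC and SLC IL-1β + LOXL2 libraries at 0.618, 0.217 and 0.184 across genes. All were over 0.1, so a fit with the number as a block was made as an alternative. The main fit had no block, and replicate 3 correlated better with a library of another number. Whether the numbers mark pairs is not known. In the IL-1β libraries the correlations were -0.05, -0.10 and -0.06. Other alternatives were DESeq2's size factors and Wald test, no filter and a stricter one, a fit on all 12 libraries, a gene span correction, a fold minimum and leaving out each library.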

Additional observations from a re-analysis of the deposited data

Results flagged for a closer look

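P2RY2, a receptor for extracellular ATP and UTP, had layer differences of opposite sign in the 2 treatments. With IL-1β + LOXL2 its normalized counts were 480, 482 and 490 in MLC and 351, 366 and 352 in SLC, a log2 fold change of 0.45 (edgeR, adjusted p = 0.031). With IL-1β alone they were 472, 453 and 406 in MLC and 500.2, 502 and 482 in SLC, a log2 fold change of -0.14 (adjusted p = 0.176). The layers did not overlap in either treatment, and 35.1% of all genes tested had no overlap with IL-1β + LOXL2. The interaction was 0.58 on the log2 scale, with an unadjusted p of 0.000511 and an adjusted p of 0.959 over 14534 genes, so it failed the correction. Of the 13761 genes tested in both treatments, 16 had opposite signs and no overlap in both. P2RY2 is the only one of them named by the rule for genes in the text.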

How the results depend on the processing

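The count of 2268 genes was 2257 with DESeq2's size factors, 2274 without a filter on low counts, 1813 with at least 10 counts in every library and 3009 with the trend over gene span removed, and DESeq2's Wald test called 2799. It moved to 3887 with the replicate block (2030 higher, 1857 lower), where 2265 of the 2268 genes were called again, and to 4199 in the fit on all 12 libraries (2117 higher, 2082 lower), and 1382 were called with a log2 fold change of at least 1 (842 higher, 540 lower). Leaving out 1 library gave 1140 to 4680 calls, 695 to 2388 higher and 439 to 2292 lower. The highest count came without the first SLC replicate, and 1155 came without the third SLC, 1140 without the second MLC and 1207 without the third MLC replicate. The higher share of calls was 50.4% in the 12-library fit, 52.2% with the block and 57.6% in the main fit. With IL-1β alone, 6547 calls became 3715 in the 12-library fit. The interaction gave 0 or 1 calls when 1 library was left out.

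Over 304 values of single genes, 3508 alternatives kept the direction and the side of the threshold, 362 lost the call, 7 gained it, and 1 turned, ADAMTS5, at -0.12 without the first MLC replicate and between that and 0.37 when any 1 library was left out. Of the counts per gene list, 933 alternatives stayed within 1.5 times and 299 did not, and for the lists' medians 467 stayed within the spread and 105 did not. The cause of these changes was not tested. The depth of 14.2 to 28.9 M counts per library limits what can be said of genes at 0 to 3 counts in a layer.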
